A study of Mus musculus with 2 samples.

Results

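The 7 genes described here are S1pr1, Foxo1, Klf2, Klf3, Klf6, Ccr7 and Itgb7, which encode receptors, an integrin chain and transcription factors linked to the exit of T cells from the thymus. They were taken by symbol from the 31053 genes in the deposited matrices, and each symbol matched 1 gene. The data are 2 single-cell RNA libraries, 1 per sorted fraction, of γδ T cells, taken from mouse embryos of the wild-type C57BL/6 strain. Thymic lobes of embryonic day 15 were cultured for 2 days and left untreated, and cells positive for CD24, a surface marker of immature thymocytes, were stained with TMRE. TMRE is a dye taken up by mitochondria according to their membrane potential, and the brightly and dimly stained cells were sorted as TMREhi and TMRElo. The comparison of both fractions asks how the transcripts of immature γδ T cells differed with this mitochondrial stain. The number of embryos behind each library is not stated in the labels and neither library has a replicate, so no p-value was computed, and the intervals given are 95% intervals that cover counting error only.

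Thymocytes leave the thymus along a gradient of the lipid sphingosine 1-phosphate, which is abundant in blood and scarce in tissue. S1PR1 is the receptor that reads the gradient, KLF2 activates its gene, and FOXO1 acts above KLF2. Signalling through PI3K and AKT keeps FOXO1 out of the nucleus, so the pathway is quiet in cells that receive strong growth signals. CCR7 and the β7 integrin guide T cells to lymphoid and mucosal tissue.

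The deposited matrices held 1202 TMREhi and 196 TMRElo barcodes, and no barcode was shared between the libraries. Barcodes with at least 500 detected genes were split into a low-ribosomal class, with under 15% of UMIs (unique transcript counts) from ribosomal protein genes, and a high-ribosomal class. TMREhi had 733 low-ribosomal barcodes with a median of 1555 UMIs and 292 high-ribosomal barcodes with a median of 8356.5. TMRElo had 117 low-ribosomal barcodes with a median of 1037 UMIs and 16 high-ribosomal barcodes with a median of 4071, of which the 5 deepest held 54.8% of the UMIs. Of these 16 barcodes 3 were called doublets, against 2 of the 292 in TMREhi. The low-ribosomal barcodes also had more mitochondrial UMIs (medians of 16.9% in TMREhi and 14.4% in TMRElo) than the high-ribosomal ones (3.55% and 3.92%), and 47 of the 733 in TMREhi and 19 of the 117 in TMRElo had at most 10% of them. Whether low-ribosomal barcodes are damaged cells, resting cells or neither was not tested. A γδ list of Trdc, γ constant regions and the CD3 chains summed to between 3158 and 5132 CPM (UMIs of a gene scaled to 1000000 UMIs of its group) in the 4 groups. The CD3 chains are shared with other T cells, so this sum does not define γδ T cells. An αβ list of genes of αβ-lineage thymocytes, such as Rag1 and Cd8a, summed to 1166 CPM in low-ribosomal TMREhi barcodes. It summed to 311 CPM in low-ribosomal TMRElo, 245 CPM in high-ribosomal TMREhi and 201 CPM in high-ribosomal TMRElo. The recombination genes of the αβ list are not particular to the αβ lineage. Endothelial cells also use S1pr1, and their list held Pecam1, Cdh5, Kdr, Tek and Egfl7. Of these, Cdh5, Kdr and Tek had 0 UMIs in both libraries. Levels of Pecam1 and Egfl7 are not given here, and an endothelial part in the S1pr1 levels was not tested.

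S1pr1 and Foxo1 were lower in TMREhi than in TMRElo within both ribosomal classes, and Klf2 at a smaller fold that was not called within the largest γ V group. Klf6 differed by less than counting error in either class. A gene was called when its summed CPM differed by more than 2-fold, and only genes averaging 10 CPM or more over both sides were tested, a minimum that all 7 genes passed in every comparison. In the low-ribosomal class 4 of the 7 genes were called lower in TMREhi and none higher, where 14.2% of the 8831 genes tested were called lower and 14.8% higher. Their median log2 ratio of TMREhi over TMRElo was −1.10, against −0.06 over all genes tested. In the high-ribosomal class 5 of 7 were called lower, against 20.6% of the genes tested, with a median of −1.55 against −0.13. The 7 genes were chosen with earlier results of these data known, so these counts and medians only describe them.

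S1pr1 (ENSMUSG00000045092, GRCm38 chr3:115710433-115715072, minus strand) had 126 UMIs or 96.0 CPM (80.0–114) in low-ribosomal TMREhi barcodes and 74 UMIs or 548 CPM (430–688) in low-ribosomal TMRElo barcodes. That is a level 5.71-fold higher in TMRElo (4.23–7.67). Among high-ribosomal barcodes it stood at 24.6 CPM (19.3–31.0) in TMREhi and at 130 CPM (65.1–233) in TMRElo, 5.29-fold higher (2.53–10.0). The egress receptor was thus highest in low-ribosomal TMRElo and lowest in high-ribosomal TMREhi barcodes, and the intervals of the libraries did not overlap in either class. Of its 11 UMIs in high-ribosomal TMRElo barcodes, 1 barcode held 4. With at least 1000 genes per barcode, which left 13 low-ribosomal TMRElo barcodes, the low-ribosomal ratio of TMREhi over TMRElo moved from 0.175 to 0.411, and among high-ribosomal barcodes with a leading γ V segment the ratio moved from 0.189 to 0.318.

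Foxo1 (ENSMUSG00000044167, chr3:52268336-52353221, plus strand), the factor restrained by PI3K and AKT, ran in the same order. It stood at 93.7 CPM (77.9–112) against 400 CPM (301–522) in the low-ribosomal class, 4.27-fold higher in TMRElo (3.04–5.93). Among high-ribosomal barcodes the levels were 30.8 CPM (24.8–37.8) in TMREhi and 130 CPM (65.1–233) in TMRElo, 4.23-fold higher (2.04–7.94).

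Klf2 (ENSMUSG00000055148, chr8:72319033-72321656, plus strand), the activator of S1pr1, stood at 83.0 CPM (68.2–100.2) in low-ribosomal TMREhi and 244 CPM (168–343) in low-ribosomal TMRElo barcodes, 2.94-fold higher in TMRElo (1.93–4.38). Its high-ribosomal levels were 117 CPM (105–130) and 308 CPM (201–451), 2.63-fold higher (1.70–3.93), a call lost among barcodes with a leading γ V segment (ratio of TMREhi over TMRElo 0.608). Unlike S1pr1 and Foxo1, Klf2 was not lower in high- than in low-ribosomal barcodes of either library. Klf3 (ENSMUSG00000029178, chr5:64803388-64832901, plus strand), a repressor that binds the same kind of site as KLF2, was 2.15-fold higher in TMRElo in the low-ribosomal class (251 against 541 CPM, 1.65–2.78), but with at least 1000 genes per barcode the ratio of TMREhi over TMRElo reversed to 2.04. High-ribosomal barcodes had 105 against 142 CPM, a fold of 1.35 with an interval that included 1 (0.692–2.40).

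Klf6 (ENSMUSG00000000078, chr13:5861482-5870394, plus strand), a widely expressed member of the family, stood at 138 CPM (119–160) in TMREhi and 133 CPM (79.0–211) in TMRElo in the low-ribosomal class. Its high-ribosomal levels were 53.4 CPM (45.3–62.4) and 83.0 CPM (33.4–171), and both intervals of the ratio included 1. Ccr7 (ENSMUSG00000037944, chr11:99144196-99155077, minus strand), the receptor for chemokines of lymphoid tissue and the thymic medulla, stood at 41.9 against 59.3 CPM in the low-ribosomal class, 1.41-fold higher in TMRElo (0.582–2.99). Ccr7 was 3.46-fold higher in TMRElo in the high-ribosomal class (34.2 against 119 CPM, 1.61–6.64), where 1 barcode held 5 of its 10 UMIs. Its high-ribosomal ratio of TMREhi over TMRElo moved from 0.289 to 0.458 without called doublets and to 0.456 without the 5 deepest barcodes of each library. Itgb7 (ENSMUSG00000001281, chr15:102215995-102231944, minus strand), the chain shared by gut-homing and epithelium-binding integrins, was 1.63-fold higher in TMRElo in the low-ribosomal class (277 against 452 CPM, 1.22–2.14), and with at least 1000 genes per barcode, which left 13 TMRElo barcodes, the ratio of TMREhi over TMRElo moved from 0.614 to 0.408. Its high-ribosomal fold was 2.95 (84.5 against 249 CPM, 1.79–4.60).

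The sequences before the starts of Klf2 and Itgb7 are shown because, of the members with a promoter entry, these had the largest ratios between barcodes with and without an S1pr1 UMI in low-ribosomal TMREhi. They come from RefSeq promoters on GRCm38.p6, cut where the GENCODE gene begins, and run 5′ to 3′ on the gene's strand. Capitals mark the GC box GGGCGG and the CACCC box CCACCC, the kind of site that KLF factors bind, on either strand (GGGTGG is the CACCC box read on the other strand). The first spans chr8:72318812-72319032 on the plus strand and the second chr15:102231945-102232185 on the minus strand.
Klf2: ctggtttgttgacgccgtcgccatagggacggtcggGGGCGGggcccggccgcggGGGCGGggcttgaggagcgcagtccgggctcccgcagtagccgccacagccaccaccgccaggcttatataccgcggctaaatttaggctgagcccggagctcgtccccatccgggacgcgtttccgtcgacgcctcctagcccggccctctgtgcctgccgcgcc
Itgb7: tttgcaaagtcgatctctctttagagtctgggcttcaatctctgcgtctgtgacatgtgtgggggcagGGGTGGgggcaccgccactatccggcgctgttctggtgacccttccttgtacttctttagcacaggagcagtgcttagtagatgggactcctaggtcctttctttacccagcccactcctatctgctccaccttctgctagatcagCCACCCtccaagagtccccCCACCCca
The Klf2 stretch holds GC boxes that begin 214 and 195 bases before the RefSeq start, and a CACCC box 19 bases before it lies in the part cut off. The Itgb7 stretch holds CACCC boxes at 182, 36 and 17 bases and no GC box. Of 32851 RefSeq promoters, 32.7% hold the GC box and 28.1% the CACCC box within the 250 bases before the start. The FOXO motif TGTTTAC, found in 3.17% of them on either strand, was in none of the 5 matched members (Foxo1, Klf2, Klf3, Klf6 and Itgb7). S1pr1 and Ccr7 were not matched.

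**Figure D1:**
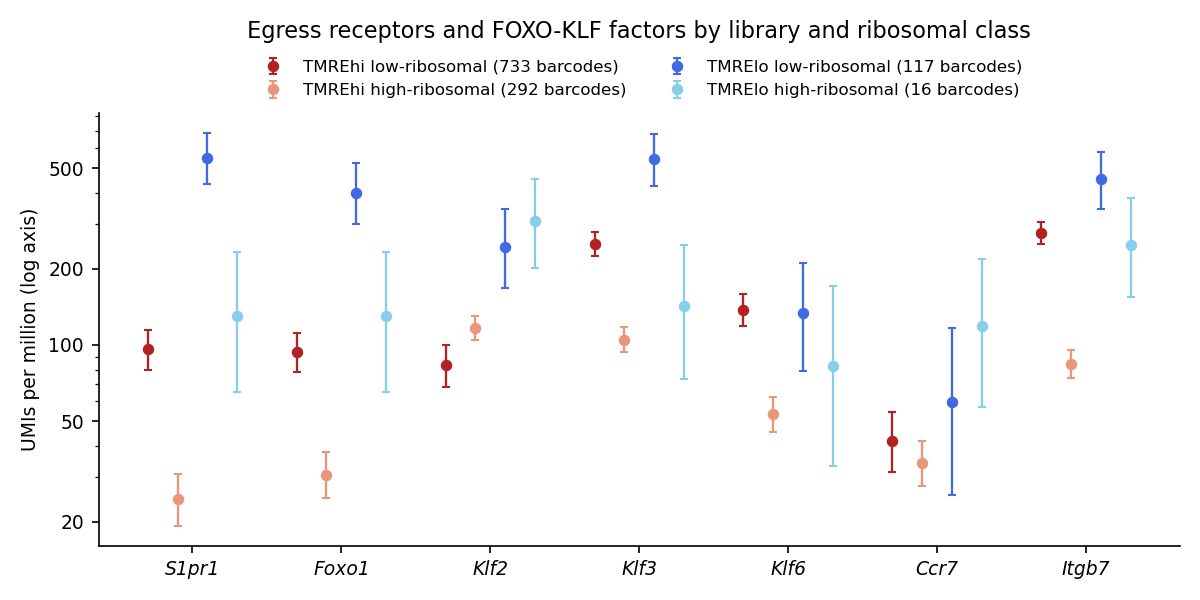
CPM (log axis) of the 7 genes in the 4 groups of library and ribosomal class; points are summed levels and bars 95% exact Poisson intervals, which cover counting error only. S1pr1 lies at 96.0 CPM in low-ribosomal TMREhi and 548 CPM in low-ribosomal TMRElo barcodes, while the Klf6 intervals of both libraries overlap in each class.

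Cell-cycle transcripts moved with the library in the low-ribosomal class. The 14 genes of a cell-cycle list summed to 4478 CPM in TMREhi and 837 CPM in TMRElo, with 12 called higher in TMREhi, against 14.8% of the genes tested. In the high-ribosomal class they summed to 3692 and 2370 CPM, and a dissociation list of 11 immediate-early and heat-shock genes summed to 363 and 699 CPM. The cell-cycle sum was thus higher in the low- than in the high-ribosomal class of TMREhi, and lower in that of TMRElo. The part of cell cycle and of handling in the levels of the 7 genes was not tested.

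The differences between libraries were smaller among low-ribosomal barcodes with a γ V transcript and larger among those without. Among low-ribosomal barcodes with at least 1 UMI of a γ V segment, the αβ list summed to 327 CPM in TMREhi and 260 CPM in TMRElo, so the libraries were nearer each other in these transcripts than in the whole class. There S1pr1 was 3.59-fold (2.54–5.03), Foxo1 3.44-fold, Klf2 2.44-fold and Klf3 2.00-fold higher in TMRElo, and these 4 genes were called, against 15% of the genes tested. Itgb7 was 1.21-fold higher in TMRElo there, with an interval that included 1 (0.885–1.64). Barcodes without a γ V UMI numbered 308 in TMREhi and 25 in TMRElo. In TMREhi these carried 2549 CPM of the αβ list and 1654 CPM of the γδ list, and in TMRElo 510 and 4554 CPM. In this pair S1pr1 stood at 28.2 CPM in TMREhi and 765 CPM in TMRElo, 27.1-fold higher (13.1–57.6). There 6 of 7 genes were called lower in TMREhi, against 27.8% of the genes tested. The call of Ccr7 rested on 6 UMIs in TMREhi and 2 in TMRElo, with an interval of the fold that included 1 (0.594–33.7). Barcodes without a γ V UMI therefore differed between the libraries in the sums of both lists.

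The filter used for retained cells, at least 500 genes and at most 10% mitochondrial UMIs, mixed the classes differently in each library. Of 317 retained TMREhi cells 270 were high-ribosomal, and of 34 retained TMRElo cells 15 were. Among the retained cells 1 in TMREhi and 6 in TMRElo were called doublets. The 5 deepest retained TMRElo cells held 44.0% of the UMIs of that group. In these cells TMRElo had the higher level of Klf2 (285 against 115 CPM, 2.48-fold, 1.64–3.60), Klf3 (238 against 108 CPM, 2.21-fold, 1.41–3.32), Ccr7 (114 against 33.0 CPM, 3.46-fold, 1.73–6.32) and Itgb7 (257 against 77.1 CPM, 3.33-fold, 2.15–4.98). Klf6 stood at 54.7 against 85.6 CPM, with a fold of 1.57 (0.703–3.05). Klf2 was not called there among barcodes with a leading γ V segment (ratio of TMREhi over TMRElo 0.591), nor Klf3 with the stricter filter of at least 1000 genes and at most 5% mitochondrial UMIs (ratio of TMREhi over TMRElo 0.873). With S1pr1 and Foxo1, 6 of the 7 genes were called lower in TMREhi, against 30.5% of the 7802 genes tested. The fold of S1pr1 was larger in retained cells (8.37) than within either class. The part of the uneven mixture in that fold was not tested.

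The share of barcodes with a UMI was compared after thinning each barcode to 1000 UMIs, which left out 155 of 733 low-ribosomal and 4 of 292 high-ribosomal TMREhi barcodes, and 49 of 117 low-ribosomal and 0 of 16 high-ribosomal TMRElo barcodes. At this depth S1pr1 was found in 41.2% of low-ribosomal TMRElo barcodes (29.4–53.8), 8.30% of low-ribosomal TMREhi (6.19–10.9) and 3.13% of high-ribosomal TMREhi barcodes, and in 3 of 16 high-ribosomal TMRElo barcodes. Unthinned, the shares were 39.3%, 11.6%, 19.5% and 31.2%, so the order of the TMREhi classes turned with depth. Thinned, Foxo1 was found in 25.0% of low-ribosomal TMRElo, 10.4% of low-ribosomal TMREhi and 4.17% of high-ribosomal TMREhi barcodes. Klf2 was found in 20.6%, 9.0% and 15.3% of these groups, and so was less frequent in low- than in high-ribosomal TMREhi barcodes. For Klf6 the shares were 10.3%, 11.1% and 5.21%, and for Ccr7 5.88%, 3.11% and 1.74%. Klf3 (38.2%, 18.2% and 9.38%) and Itgb7 (32.4%, 23.2% and 11.8%) had, like Foxo1 and Ccr7, the same order of groups as S1pr1.

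A larger share of low-ribosomal TMRElo than of low-ribosomal TMREhi barcodes held several of the genes. At 1000 UMIs at least 1 of the 7 genes was found in 83.8% of low-ribosomal TMRElo barcodes and 54.2% of low-ribosomal TMREhi barcodes. At least 3 were found in 26.5% (16.5–38.6) and 5.88% (4.11–8.12). In high-ribosomal TMREhi barcodes these shares were 38.9% and 2.43%. Whether the genes met in the same barcode beyond what their single shares give was not tested.

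Low-ribosomal TMREhi barcodes with a Rag1 UMI and no γ V UMI were taken as a separate group. A γ V transcript can be missed at their depth, so the group may hold cells that carry one. Rag1 encodes a subunit of the recombinase of immature thymocytes. In these 159 barcodes, with a median of 1085 UMIs, S1pr1 and Ccr7 had 0 UMIs, which, at 3 counts, allows up to 1.89% of barcodes with a UMI for each and sets no limit on cells that use the gene. Klf2 had 6 UMIs, or 24.2 CPM, in 2.52% of barcodes, and Itgb7 stood at 40.3 CPM. Klf3 and Klf6, in contrast, stood at 314 and 137 CPM, levels within or above the intervals of the whole low-ribosomal TMREhi class, and Foxo1 at 64.4 CPM. The members with little or no signal in Rag1-bearing barcodes were thus the receptors, the integrin chain and Klf2. Klf3 and Klf6 were as high there as in the class around them. Foxo1 fell on neither side. Its level was under the class interval of 77.9–112 CPM, with an interval of its own (36.8–105) that overlapped it.

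**Figure D2:**
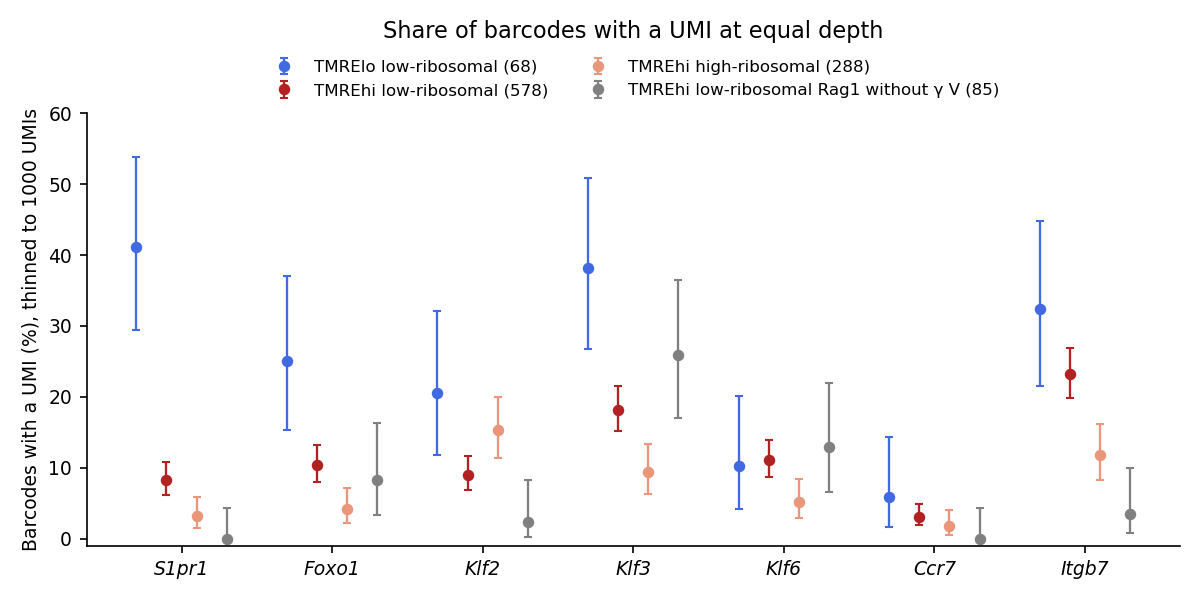
Share of barcodes with at least 1 UMI of each gene (percent) after thinning to 1000 UMIs, with 95% exact binomial intervals; numbers in the key are barcodes left after thinning. S1pr1 lies at 41.2% in low-ribosomal TMRElo and at 8.30% in low-ribosomal TMREhi barcodes, and no thinned Rag1-bearing barcode held S1pr1 or Ccr7.

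The γ V segment with most UMIs marks the wave of development a γδ T cell belongs to. Barcodes led by the nearly identical segments Trgv2, Tcrg-V1 and Tcrg-V3, counted here as the Vγ1 family, were the largest group, with 191 low-ribosomal TMREhi barcodes, followed by Vγ4 with 74, Vγ6 with 56 and Vγ5 with 31. Among low-ribosomal TMREhi barcodes Klf2 had 2 UMIs in Vγ6, where it was called lower than in the Vγ1 family, and 0 in Vγ5, where it was not called. Itgb7 had the higher levels in Vγ5 and Vγ6 barcodes, with intervals of the ratio above 1 but folds under the 2-fold used for a call.

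S1pr1 stood at 203 CPM (30 UMIs) in Vγ4, 129 CPM (53 UMIs) in Vγ1-family, 69.1 CPM (6 UMIs) in Vγ6 and 66.4 CPM (3 UMIs) in Vγ5 barcodes, and at 28.2 CPM without a γ V UMI. The Vγ4 level was 1.58-fold that of the Vγ1 family (0.974–2.52), and the ratios of Vγ6 (0.536, 0.188–1.25) and Vγ5 (0.516, 0.103–1.59) to the Vγ1 family also had intervals that included 1. Foxo1 was 1.92-fold higher in Vγ4 than in Vγ1-family barcodes (149 against 77.7 CPM, 1.06–3.41), and stood at 133 CPM in Vγ5 (6 UMIs) and 46.0 CPM in Vγ6 barcodes (4 UMIs). No member was called between Vγ4 and the Vγ1 family, where 8.33% of genes tested were called higher and 10.3% lower in Vγ4.

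Klf2 stood at 102 CPM in both Vγ1-family (42 UMIs) and Vγ4 barcodes (15 UMIs), at 23.0 CPM in Vγ6 (2 UMIs) and at 0 in Vγ5 barcodes. It was 4.43-fold lower in Vγ6 than in the Vγ1 family (1.15–37.8). Klf3 stood at 346 CPM in Vγ4 barcodes, where 1 barcode held 12 of its 51 UMIs. It stood at 248 CPM in Vγ1-family, 138 CPM in Vγ6 and 44.3 CPM in Vγ5 barcodes (2 UMIs). In Vγ5 barcodes it was 5.60-fold lower than in the Vγ1 family (1.51–46.8). Ccr7 stood at 74.6 CPM in Vγ4, 68.0 in Vγ1-family and 34.5 CPM in Vγ6 barcodes (3 UMIs), and at 0 in Vγ5. In each of the Vγ5 and Vγ6 groups 1 of 7 genes was called lower than in the Vγ1 family, against 10.4% and 12.9% of the genes tested, so the count of called members stood near the background there. Klf6 ranged only from 115 CPM in Vγ6 to 177 CPM in Vγ5 barcodes.

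Itgb7 ran the other way. It stood at 664 CPM (30 UMIs) in Vγ5 and 622 CPM (54 UMIs) in Vγ6 barcodes, the precursors of epidermal and of fetal IL-17-producing γδ T cells, against 345 CPM (142 UMIs) in Vγ1-family, 244 CPM (36 UMIs) in Vγ4 and 90.7 CPM in barcodes without a γ V UMI. The level was 1.93-fold (1.25–2.87) higher in Vγ5 and 1.80-fold (1.29–2.48) higher in Vγ6 than in the Vγ1 family, both under the 2-fold used for a call. In high-ribosomal TMREhi barcodes, which hold other cells of the same library, Itgb7 was 2.95-fold higher in the 41 Vγ6 than in the 190 Vγ1-family barcodes (203 against 69.0 CPM, 2.06–4.13). There Klf6 was also 2.33-fold higher in Vγ6 barcodes (108 against 46.6 CPM, 1.43–3.65), against a ratio of 0.831 (0.378–1.64) in the low-ribosomal class. Klf3 was 2.70-fold lower (40.7 against 110 CPM, 1.40–5.98) and Klf2 1.88-fold lower in high-ribosomal Vγ6 barcodes (67.8 against 128 CPM, 1.12–3.41), while S1pr1 stood at 36.1 against 23.3 CPM with an interval that included 1. With Ccr7, at 3 UMIs, 2 of 7 genes were called lower in high-ribosomal Vγ6 barcodes and 2 higher, against 14.9% and 13.6% of the genes tested.

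**Figure D3:**
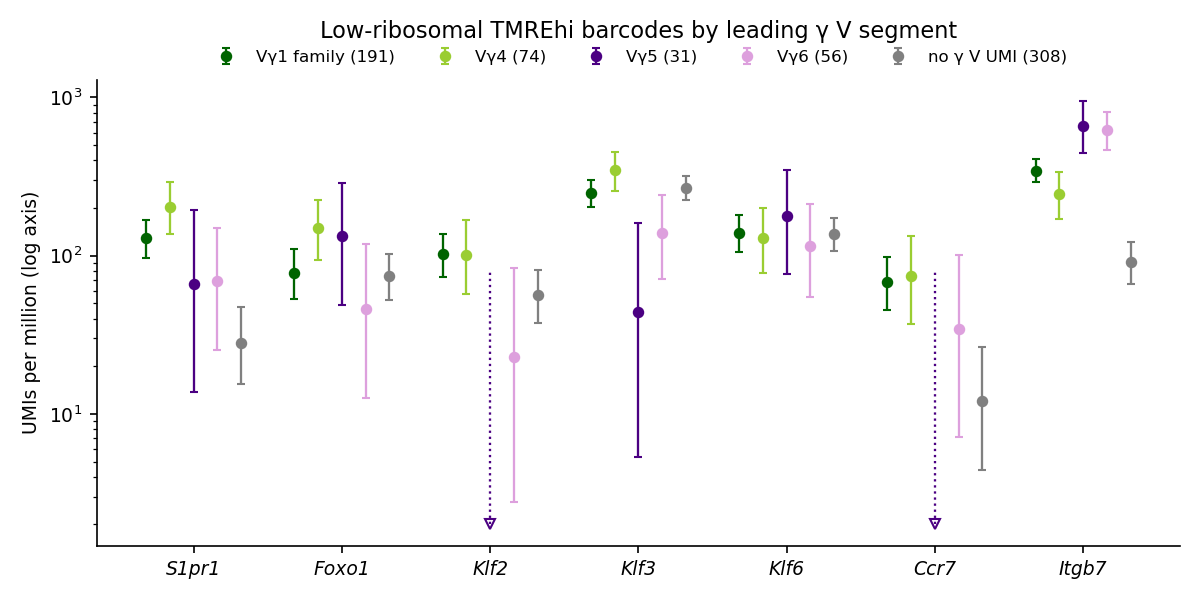
CPM (log axis) of the 7 genes in low-ribosomal TMREhi barcodes by leading γ V segment, with 95% exact Poisson intervals; open triangles with dotted lines mark 0 UMIs, and the dotted line ends at the upper limit. Itgb7 lies at 664 CPM in Vγ5 and 622 CPM in Vγ6 barcodes, above the 345 CPM of the Vγ1 family, while Klf2 and Ccr7 have 0 UMIs in Vγ5 barcodes.

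The difference between the libraries in S1pr1 and Foxo1 was also found among barcodes led by 1 segment. In low-ribosomal Vγ1-family barcodes S1pr1 stood at 129 CPM in TMREhi and 451 CPM in TMRElo (3.50-fold higher, 2.15–5.60) and Foxo1 at 77.7 and 311 CPM (4.0-fold, 2.17–7.21). These were the 2 of 7 genes called there, against 20.3% of the genes tested, and Klf2 stood at 1.83-fold with an interval that included 1 (0.876–3.53). In low-ribosomal Vγ4 barcodes, 74 in TMREhi and 21 in TMRElo, S1pr1 stood at 203 and 817 CPM (4.02-fold, 2.11–7.45), Klf2 at 102 and 499.5 CPM (4.91-fold, 2.04–11.4) and Klf3 at 346 and 908 CPM (2.63-fold, 1.48–4.48). With Foxo1, 4 of 7 were called, against 26.9% of the genes tested. Within low-ribosomal TMRElo, Vγ4 exceeded Vγ1-family barcodes for Klf2 (2.68-fold, 1.07–6.63) and Klf3 (2.17-fold, 1.15–4.01), and S1pr1 stood 1.81-fold higher with an interval that included 1 (0.949–3.38). These 2 genes were called, against 18.1% of the genes tested. Among high-ribosomal Vγ1-family barcodes 5 of 7 genes were called lower in TMREhi, against 24% of the genes tested, with 10 barcodes on the TMRElo side. These were S1pr1, Foxo1, Ccr7, Itgb7 and Klf6, the last at 2.09-fold with an interval that included 1 (0.750–4.71), while Klf2 stood at 1.65-fold (0.869–2.87) and was not called.

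Between the ribosomal classes of TMREhi, Klf2 was the only member with a lower level in the low-ribosomal class, at 0.710 of its high-ribosomal level (0.567–0.883). In TMRElo the ratio was 0.793 (0.460–1.38) for Klf2 and 0.500 (0.172–1.41) for Ccr7, both with intervals that included 1. S1pr1 was 3.90-fold higher in low- than in high-ribosomal TMREhi barcodes (2.89–5.28), Itgb7 3.28-fold, Foxo1 3.04-fold, Klf6 2.58-fold and Klf3 2.39-fold, and Ccr7 1.22-fold with an interval that included 1 (0.865–1.72). These 5 genes were called, but so were 46.5% of the 8447 genes tested, whose median log2 ratio was 0.85. With median-of-ratios scaling, which brings that median to 0 within rounding, 1 gene was called higher, S1pr1 at 2.15-fold, and Klf2, at 0.391, passed 2-fold in the other direction. With that scaling Itgb7 stood at 1.81-fold and Foxo1 at 1.68-fold, and Ccr7 turned to 0.675. S1pr1 was therefore the member most above the shift of all genes, and Klf2 and Ccr7 were below it with either scaling.

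The genes were then compared between barcodes with and without an S1pr1 UMI, within library and class. In low-ribosomal TMREhi barcodes, 85 had an S1pr1 UMI and 648 had none, with median depths of 1737 and 1536.5 UMIs. Klf2 stood at 294 CPM in barcodes with S1pr1 and 54.5 CPM in those without, 5.39-fold higher (3.60–8.01). Ccr7 was 3.30-fold higher (109 against 32.9 CPM), Itgb7 2.95-fold (664 against 225 CPM) and Foxo1 1.88-fold (160 against 84.8 CPM, 1.16–2.95). Klf6 stood at a ratio of 1.35 with an interval that included 1 (0.869–2.03). Of the 6 genes 3 were called, against 8.03% of the genes tested.

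Both sides of that contrast also differed in the αβ list, which summed to 224 CPM in barcodes with S1pr1 and 1294 CPM in those without. The part of this difference in the ratios was not tested. Among barcodes with a γ V UMI (72 with S1pr1 and 353 without, 200 and 353 CPM of the αβ list), Klf2 was 3.7-fold (2.31–5.85), Ccr7 2.14-fold (1.08–4.03) and Itgb7 1.91-fold higher (1.48–2.44) in those with S1pr1. Foxo1 stood at 1.37-fold there, with an interval that included 1 (0.780–2.32). Of the 6 genes 2 were called, against 7.67% of the genes tested. With barcodes tied between segments left out as well, Ccr7 stood at 1.61-fold, under the 2-fold used for a call. The cell-cycle list summed to 3802 CPM with S1pr1 and 3409 CPM without in these γ V barcodes.

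In high-ribosomal TMREhi barcodes Ccr7 and Klf2 had the largest ratios. In the 57 of these with S1pr1, Klf2 stood at 291 CPM, against 77.9 CPM in the 235 without, 3.73-fold higher (3.0–4.64). Ccr7 was 3.79-fold (85.8 against 22.6 CPM, 2.50–5.72) and Foxo1 2.97-fold higher (67.1 against 22.6 CPM, 1.89–4.61), and these 3 genes were called, against 4.29% of the genes tested. Itgb7 was 1.87-fold higher (1.40–2.47), and Klf3 and Klf6 stood at 1.24-fold and 0.931 with intervals that included 1.

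In low-ribosomal TMRElo, where 46 barcodes had an S1pr1 UMI and 71 had none, Klf2 stood at a ratio of 1.39 (0.650–2.91), Foxo1 at 0.903 and Itgb7 at 0.938. Among those with a γ V UMI the Klf2 ratio was 0.985 (0.387–2.34) in TMRElo, against 3.7 (2.31–5.85) in TMREhi, and these intervals overlap at their ends. The difference between the libraries in these ratios was not tested. Ccr7 (5 against 3 UMIs) was called higher and Klf6 (4 against 14 UMIs) lower, against 13% and 11.5% of the genes tested. Thinned to 1000 UMIs, Klf2 was found in 22.9% of the low-ribosomal TMREhi barcodes with S1pr1 (12.0–37.3) and 7.74% of those without (5.61–10.3), and Itgb7 in 47.9% (33.3–62.8) and 20.9% (17.6–24.7). Among those with a γ V UMI the thinned intervals overlapped for both genes: Klf2 was found in 9 of 45 barcodes with S1pr1 (9.58–34.6%) and 8.88% of those without (6.07–12.4), and Itgb7 in 48.9% (33.7–64.2) and 28.7% (23.9–33.8). In low-ribosomal TMRElo as a whole the shares with Klf2 were 17.9% and 22.5%, with overlapping intervals.

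**Figure D4:**
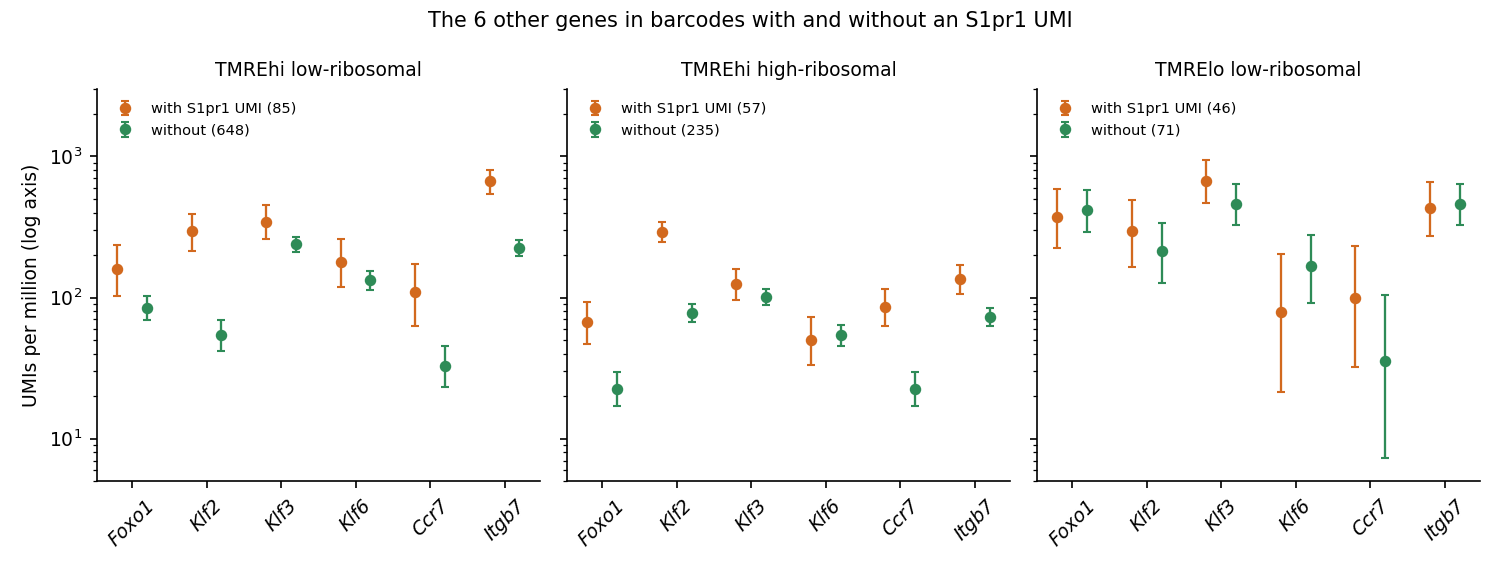
CPM (log axis) of the 6 other genes in barcodes with (orange) and without (green) an S1pr1 UMI in 3 groups, with 95% exact Poisson intervals and the number of barcodes in each key. Klf2 lies at 294 against 54.5 CPM in low-ribosomal and at 291 against 77.9 CPM in high-ribosomal TMREhi barcodes, while the Klf2 intervals overlap in low-ribosomal TMRElo barcodes.

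Vγ4 barcodes made up 18.8% (16 of 85) of the low-ribosomal TMREhi barcodes with S1pr1 and 8.95% (58 of 648) of those without. In low-ribosomal TMRElo barcodes the shares were 26.1% (12 of 46) and 12.7% (9 of 71). The intervals of the Vγ4 shares overlapped in TMREhi (11.2–28.8 and 6.87–11.4) and in TMRElo (14.3–41.1 and 5.96–22.7). Barcodes with no γ V UMI made up 15.3% of the TMREhi barcodes with S1pr1 and 45.5% of those without. In low-ribosomal TMRElo the direction was the other, with 28.3% (13 of 46) and 16.9% (12 of 71), and these intervals overlapped.

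Of 25 further genes of thymic exit and retention, 23 were tested in the low-ribosomal class, where 3 were called higher and 5 lower in TMREhi, against 14.8% and 14.2% of the genes tested, and the median log2 ratio was −0.09. In the high-ribosomal class 19 were tested, with 4 called higher and 6 lower, against 8.91% and 20.6% of the genes tested, and a median of −0.63. Arhgef1, a regulator of the cytoskeleton below G-protein-coupled receptors, was 2.09-fold higher in TMRElo in the low-ribosomal class (443 against 926 CPM, 1.71–2.54) and 2.34-fold in the high-ribosomal class (1.56–3.39). Coro1a, an actin regulator needed for thymic exit, stood at 601 against 615 CPM and Ccr9, a receptor that holds and guides thymocytes, at 939 against 1134 CPM in the low-ribosomal class. Gnai2, the G-protein subunit that S1PR1 signals through, had a ratio of TMREhi over TMRElo of 1.15 there (0.772–1.77).

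A further list held 12 genes, which were other FOXO and KLF family members and the forkhead gene Foxp1. Of these, 7 were tested in the low-ribosomal class, where 1 was called higher and 3 lower in TMREhi (median −0.85), against the same background of 14.8% and 14.2%. In the high-ribosomal class 4 were tested and 3 were called lower (median −1.20), against 20.6% of the genes tested. Foxp1, counted among the genes called lower in both classes, is a forkhead factor of quiescent T cells outside the FOXO family. It was 2.70-fold higher in TMRElo in the low-ribosomal class (280 against 756 CPM, 2.14–3.36) and 2.43-fold in the high-ribosomal class (1.44–3.87). Klf13 was 2.36-fold (1.76–3.13) and 2.49-fold higher (1.22–4.58). Klf7 (109 against 81.5 CPM) and Foxo3 (68.6 against 96.3 CPM) were not called in the low-ribosomal class.

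Of 19 genes that FOXO1 activates or that act above it through PI3K and AKT, 4 were called higher and 6 lower in low-ribosomal TMREhi (19 tested, median −0.25), against 14.8% and 14.2% of all genes. In the high-ribosomal class 2 were called higher and 6 lower (18 tested, median −0.55), against 8.91% and 20.6%. Pik3cd, the PI3K catalytic subunit of leukocytes, was 2.55-fold higher in TMRElo in the low-ribosomal class (1.88–3.40), and Sesn3, a FOXO target, 2.02-fold (194 against 393 CPM, 1.47–2.73). Il7r, the IL-7 receptor chain that FOXO1 activates, stood at 537 against 682 CPM between the libraries. In low-ribosomal TMREhi, where the αβ list differed as given for that contrast, Il7r was 3.05-fold higher in barcodes with than without S1pr1 (1316 against 432 CPM, 2.58–3.59).

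Genes were finally ranked by how closely their level followed that of S1pr1 over 13 groups of library, ribosomal class and leading γ V segment, as Pearson correlations of log2(CPM + 10) among 3470 genes with at least 200 UMIs. Foxo1 ranked first, with r = 0.94. Klf3 ranked 95 (r = 0.80), Itgb7 632 (0.63), Klf2 881 (0.54) and Klf6 1072 (0.47), and Ccr7 was under the minimum. The next 4 genes were Efr3a (0.93), Ripor2 (0.92), Zfp36l2 (0.91) and Peli1 (0.90). Peli1, for example, stood at 279 CPM in low-ribosomal TMREhi and 985 CPM in low-ribosomal TMRElo barcodes, and Ripor2 at 139 and 593 CPM. The 13 points share 2 libraries and their depth, so these values only describe the likeness. Foxo1 thus followed S1pr1 most closely between groups, while Klf2 had the largest ratio between barcodes with and without S1pr1 in the low-ribosomal TMREhi class.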

How the data were processed

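Libraries were made with the 10x Chromium 5′ kit, per the labels. The authors deposited raw UMI counts, whole numbers per gene and barcode, from Cell Ranger, which is version 3.0.2 per the file headers and 3.0 in the submitters' processing notes, with build mm10. How cells were called is not stated in these sources.

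The members and gene lists were chosen with earlier results of these data known. UMIs were summed per group and scaled to CPM with Python 3.11.15 and scipy 1.17.1. Levels carry exact Poisson, ratios exact conditional and shares exact binomial (Clopper-Pearson) intervals of 95%. A 0 was set to 3 counts, which is 2.29 CPM in low-ribosomal TMREhi (1312546 UMIs) and 22.2 in low-ribosomal TMRElo barcodes (134974 UMIs). A log2 ratio is of CPM + 1. Ties in the leading γ V segment were left out, except where any γ V UMI was asked for. The groups with any γ V UMI, without one, and with Rag1 but no γ V were added after the data were seen. Scrublet called 3 TMREhi and 9 TMRElo barcodes doublets, which were kept. Thinning used seed 1. The scripts were tested on simulated data. The genes named were the 7 members, up to 4 of each list by mean CPM in retained cells, and the 5 most like S1pr1; 1 list gene is not reported here. Alternatives covered the cells kept, the ribosomal limit, scaling, pooling, the low-value filter, the leading-segment minimum and the thinning depth. Gene coordinates are from GENCODE vM21.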

Additional observations from a re-analysis of the deposited data

How the results depend on the processing

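Each group has 1 library, so every value rests on that library. No paired analysis was possible because each group has 1 library. The S1pr1 level stayed higher in TMRElo under every alternative run, by 2.44- to 5.71-fold in the low-ribosomal and 3.14- to 6.23-fold in the high-ribosomal class, and Foxo1 by 3.36- to 4.39-fold and 3.05- to 4.93-fold. The number of genes called higher in the low-ribosomal class of TMREhi moved from 5 to 1 with median-of-ratios scaling. At 2000 in place of 1000 UMIs the share with S1pr1 was 0% in low-ribosomal TMRElo, of which 4 barcodes were that deep, and 6.83% in high-ribosomal TMREhi barcodes. With at least 1000 genes per barcode, which left 13 low-ribosomal TMRElo barcodes, the Klf3 ratio of TMREhi over TMRElo reversed from 0.465 to 2.04. Median-of-ratios scaling takes out the shift of all genes between the classes, and the share with a UMI rises with depth in the same barcodes. The cause of the Klf3 change was not tested beyond the number of barcodes. Of the other alternative values, 57 of the counts and S1pr1 results and 358 of the single-gene results moved by less than their interval or 1.5 times, and 37 single-gene results moved further. Median-of-ratios scaling moved the low-ribosomal shares of all genes called higher and lower in TMREhi from 14.8% and 14.2% to 22.2% and 7.50%. The depth of TMRElo limits Ccr7 (8 UMIs) and Klf6 (18 UMIs) in the low-ribosomal class.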
